A study of Mus musculus with 6 samples.

Results

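Pi16, Dpp4, Cd34, Ly6a, Ly6c1, Sema3c, Anxa3, Dpt and Cd248 are 9 genes used to recognise fibroblast progenitors of the outer vessel wall and of loose connective tissue. They were chosen by gene symbol from a table of 23170 genes, and all 9 were found there. Pi16 and Dpp4 were picked because their group means were higher after partial discectomy, so their difference between the groups is a description here and not a test. Cd34, Ly6a and Ly6c1 are shared with blood or vessel cells. RNA came from bone under the cartilage of the mandibular condyle, the part of the lower jaw that bears the temporomandibular joint, of mice labelled wild type. The labels give 3 libraries after a sham operation and 3 after partial discectomy, in which part of the disc of the joint is removed. Surgery was on 1 side and the operated joint was sampled. The age label of both groups gives 6 weeks followed by 2 weeks with the prefixes P and PO, which it does not spell out, and it is not stated whether each library is a separate mouse. The group codes in the sample descriptions and table, LPD and Rctrl, are not explained either, and anything else they stand for goes with the group. The descriptions also carry a number, and 6 occurs in both groups, so whether the groups share a mouse is not known.

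Adventitial fibroblast progenitors lie in the sheath around larger vessels and in fascia. They are known to give rise to more specialised fibroblasts and, in fat tissue, to preadipocytes. Pi16 and Dpp4 mark the least committed state in mice, Ly6a, Cd34 and Dpt are found more broadly in fibroblasts, and each surface protein of the group also occurs on other cells.

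The authors' deposited table gives group means, without the single libraries. The means are normalized expression values in an unnamed unit with a smallest value of 1, called the floor, so levels are compared within a gene and not between genes. A ratio divides the partial discectomy mean by that of sham, floor included, and its 95% limits are the authors'. The p-values come from a model that is not named. Because the members were chosen with this comparison known, their limits and p-values are printed as the authors' description. The table also holds, for each gene, the highest single library value and the geometric and arithmetic mean over 6 libraries. Together with both group totals these limit what the libraries can have been. The limits computed from them below are the lowest and highest values that 6 numbers can take with those sums, that highest value and that geometric mean. They are arithmetic bounds, not error bars, and rest on each group mean being the arithmetic mean of 3 libraries with no library under the floor. For 23137 of the 23170 genes 6 such numbers exist. Defining genes of bone were present in both groups: Bglap, which encodes osteocalcin, had means of 372 after partial discectomy and 219.8 in sham, and Ctsk, the osteoclast protease cathepsin K, 791 and 470, by the authors' deposited table.

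Pi16 and Dpp4 had higher means after partial discectomy, while Sema3c, Cd248 and Dpt had lower means and Ly6c1 and Cd34 had similar ones. Pi16 and Dpp4, 2 of the 9 genes, were called higher at an adjusted p under 0.05 going by the authors' deposited table and none was called lower, where 2.28% of all genes were called higher, 0.104% lower and 2.38% in either direction. The choice of Pi16 and Dpp4 used this contrast, so nothing is read from that count. Without adjustment, at p under 0.05, 3 of the 9 genes were higher and 0 lower in the authors' deposited table, against 10.9% and 3.31% of all genes. Nothing is read from this count either, since Pi16 and Dpp4 are in it. Of the 7 genes without them, 1 was higher and 0 lower. The members' ratios ran from 0.498 for Sema3c to 3.08 for Pi16 going by the authors' deposited table, with 4 above 1 and 5 below. Their median log2 ratio was -0.18, and -0.50 for the 7 without Pi16 and Dpp4, where the median over all genes was 0.08. In whole bone, fewer cells of a type and less RNA per cell cannot be told apart.

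**Figure D1:**
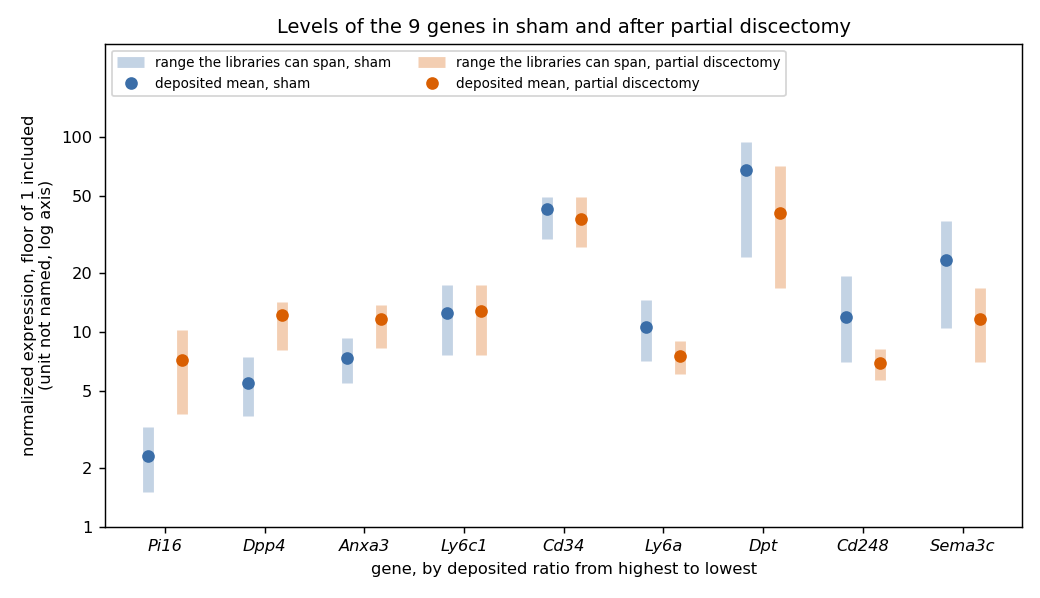
Normalized expression on a log axis for the 9 genes, ordered by ratio, with points for the deposited group means (n = 3 libraries each) and pale bars for the span from the lowest to the highest value that the libraries can have had. For Pi16 and Dpp4 the bars of the 2 groups do not touch, for Anxa3 they cross from 8.31 to 9.27, and for Cd34 and Ly6c1 they overlap almost wholly.

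Pi16 encodes peptidase inhibitor 16, a glycoprotein of the CAP superfamily (chromosome 17, 29317680 to 29330593, plus strand, GRCm38). Its mean was 7.13 after partial discectomy and 2.32 in sham in the authors' deposited table. The highest of the 6 libraries, at 10.3, exceeded the whole sham total of 6.96, so it was a partial discectomy library, and the other 2 libraries of that group averaged 5.56. By the same table's means, no partial discectomy library can have been under 3.79 and no sham library over 3.24. The groups therefore did not overlap. The deposited ratio was 3.08 (95% limits 1.87 to 5.06, adjusted p of 0.0352 going by the authors' deposited table). Without its highest library, a step that lowers the ratio by construction, the ratio was 2.40. Sham lay close to the floor, and with the floor subtracted from both means of the authors' deposited table the ratio was 4.65, so the size of the difference depends on how the floor is read. Pi16 was the only one of the 9 whose mean above the floor, 3.73, was under 5.

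Of 13 other CAP superfamily genes looked for, 6 were in the table and none was called. Their ratios were above 1 for 3 of the 6. Glipr1, which is expressed in several blood and stromal cells, had means of 8.11 after partial discectomy and 3.93 in sham in the authors' deposited table, a ratio of 2.07 (1.42 to 3.01, adjusted p of 0.0710). Pi15, a close relative of Pi16, had a ratio of 0.632 (0.288 to 1.38) going by the authors' deposited table. The secreted proteins Crispld1 and Crispld2 had ratios of 0.993 and 0.644 going by the authors' deposited table.

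Dpp4 encodes dipeptidyl peptidase 4, also called CD26, a membrane enzyme that removes the first 2 residues from chemokines and peptide hormones (chromosome 2, 62330073 to 62412231, minus strand). T cells carry it too. The authors' deposited table gave means of 12.2 after partial discectomy and 5.46 in sham. The highest library, 14.3, can have been a partial discectomy library only, and the other 2 of that group averaged 11.2. Each partial discectomy library was at least 8.08 and each sham library at most 7.44, by the sums and the geometric mean of the authors' deposited table, so the groups did not overlap. Its deposited ratio was 2.24 (95% limits 1.52 to 3.30, adjusted p of 0.0425 going by the authors' deposited table), or 2.05 without the highest library and 2.52 with the floor subtracted.

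The other 7 genes of the Dpp4 family and its relatives were all in the table, and none was called. Fap, fibroblast activation protein, which is the closest relative of Dpp4 and lies beside it on chromosome 2, had means of 330 and 307 and a ratio of 1.07 (0.616 to 1.87) going by the authors' deposited table. The cytosolic enzymes Dpp8 and Prep had ratios of 1.07 (0.813 to 1.40) and 1.22 (0.901 to 1.64) going by the authors' deposited table. Among 13 measured substrates of Dpp4 and receptors of those substrates, 3 were called higher and none lower. Cxcl12, a chemokine that holds blood stem cells in marrow and loses activity when cut by Dpp4, rose 4.02-fold (1.87 to 8.62, adjusted p of 0.0473) going by the authors' deposited table. Its receptor Cxcr4, found on most blood cells, rose 3.08-fold (1.91 to 4.97, adjusted p of 0.0245), per the authors' deposited table. Ccl5, a chemokine of T and NK cells, rose 2.88-fold (1.81 to 4.57), from 1.16 to 3.35 going by the authors' deposited table, or 14.4-fold with the floor subtracted. Ackr3, the scavenging receptor for Cxcl12 and itself a gene of adventitial progenitors, stood at 25.5 and 25.1, a ratio of 1.02 (0.652 to 1.58) going by the authors' deposited table.

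The promoter windows of Pi16 and Dpp4, both genes called higher, are shown from 250 bases before to 50 bases after the RefSeq start (GRCm38.p6). Capitals mark matches, on either strand, to the TATA box (TATAAA), the GC box (GGGCGG), the AP-1 site (TGANTCA) or the cores bound by Runx (TGTGGT), Gli (GACCACCC) and TEAD factors (GGAATG) or to an E-box (CAGCTG). No matches overlapped in the 4 windows printed. For Pi16, Sema3c and Dpt the RefSeq start lies past the GENCODE start of the gene.
Pi16, chr17:29318632-29318931, plus strand: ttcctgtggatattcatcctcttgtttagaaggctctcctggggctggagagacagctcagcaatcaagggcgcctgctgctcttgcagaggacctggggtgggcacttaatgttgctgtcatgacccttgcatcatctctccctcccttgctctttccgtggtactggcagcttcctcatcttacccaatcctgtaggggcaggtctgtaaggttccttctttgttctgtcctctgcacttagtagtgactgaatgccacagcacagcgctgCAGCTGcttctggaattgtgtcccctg
Dpp4, chr2:62412182-62412481, minus strand: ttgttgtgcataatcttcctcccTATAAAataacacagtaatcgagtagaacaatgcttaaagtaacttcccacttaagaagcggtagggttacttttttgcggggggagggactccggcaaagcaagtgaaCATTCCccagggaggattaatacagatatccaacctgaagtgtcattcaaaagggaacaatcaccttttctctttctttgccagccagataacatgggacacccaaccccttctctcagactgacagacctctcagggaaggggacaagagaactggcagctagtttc

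The Pi16 window held 1 match, to CAGCTG, the core of an E-box, which is found in 16.3% of the 32851 windows of this length in the table of promoters. The Dpp4 window held 1 TATAAA (13.6% of all windows), 227 bases before the start, and 1 GGAATG, the core bound by TEAD factors (14.7%). No motif of the 7 was shared by both windows. Neither held GACCACCC, the core of the Gli site, which occurs in 0.807% of all windows. Both were poor in CpG, with 3 and 4 CpG against a median of 7.

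Sema3c, Dpt and Cd248 had the lowest 3 ratios of the 9 genes, and in each the largest value was a single sham library. Sema3c encodes a secreted semaphorin that guides axons and vessels through neuropilin and plexin receptors (chromosome 5, 17574281 to 17730268, plus strand). In the authors' deposited table its mean was 11.6 after partial discectomy and 23.3 in sham. The highest library, 37.3, exceeded the whole partial discectomy total of 34.8, so it was a sham library, and the other 2 sham libraries averaged 16.3. No partial discectomy library can have been over 16.9 and no sham library under 10.4, so whether the groups overlapped was not settled. The ratio was 0.498 (95% limits 0.275 to 0.904, adjusted p of 0.366 going by the authors' deposited table), and 0.712 without that 1 sham library. The limits leave out 1 although the unadjusted p in the authors' deposited table is 0.0560. Leaving out the highest sham library moves a ratio upward by construction, here and for Dpt, Cd248 and Ly6a.

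Dpt encodes dermatopontin, a matrix protein that binds decorin and collagen fibrils (chromosome 1, 164796644 to 164824266, plus strand). Its means were 40.7 after partial discectomy and 67.9 in sham in the authors' deposited table. A sham library held the highest value, 94.2, and the other 2 sham libraries averaged 54.7. With that library the ratio was 0.600 (0.319 to 1.13, adjusted p of 0.400 going by the authors' deposited table), and without it 0.744. Cd248 encodes endosialin, a membrane protein of fibroblasts and pericytes (chromosome 19, 5068078 to 5070682, plus strand). The authors' deposited table gave it 6.89 after partial discectomy and 12.0 in sham. Its highest library, 19.4, was again in sham and made up 53.9% of the sham total, and the other 2 averaged 8.29. The ratio was 0.575 (0.345 to 0.960, adjusted p of 0.391 going by the authors' deposited table) and 0.832 without that library. As for Sema3c, the limits of Cd248 leave out 1 while its unadjusted p, by the authors' deposited table, is 0.0648. For both genes it was not settled whether the groups overlapped. The table does not say whether the highest library was the same for Sema3c, Dpt and Cd248.

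**Figure D2:**
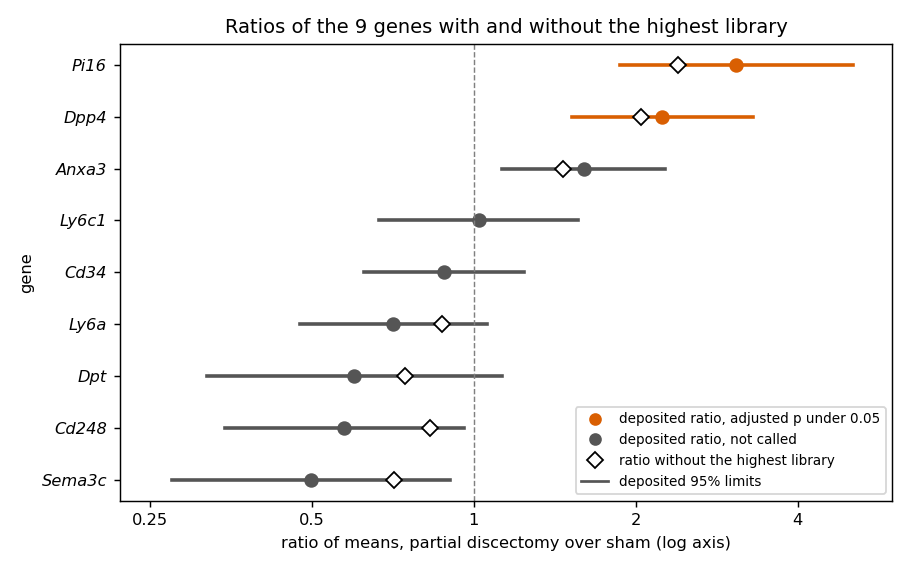
Ratio of the means after partial discectomy and in sham, on a log axis, for the 9 genes, with the deposited 95% limits as lines and the ratio without the highest library as an open diamond where the group of that library is certain. The diamonds of Pi16, Dpp4 and Anxa3 stay above 1, at 2.40, 2.05 and 1.46, and those of Sema3c, Cd248, Dpt and Ly6a lie nearer to 1 than the deposited ratios. By construction, leaving out a highest partial discectomy library lowers a ratio and leaving out a highest sham library raises it. Where the groups did not overlap, as for Pi16, Dpp4 and Anxa3, the ratio must also stay above 1.

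The promoter windows of Sema3c and Dpt are shown beside those of Pi16 and Dpp4, with the same motifs in capitals.
Sema3c, chr5:17574566-17574865, plus strand: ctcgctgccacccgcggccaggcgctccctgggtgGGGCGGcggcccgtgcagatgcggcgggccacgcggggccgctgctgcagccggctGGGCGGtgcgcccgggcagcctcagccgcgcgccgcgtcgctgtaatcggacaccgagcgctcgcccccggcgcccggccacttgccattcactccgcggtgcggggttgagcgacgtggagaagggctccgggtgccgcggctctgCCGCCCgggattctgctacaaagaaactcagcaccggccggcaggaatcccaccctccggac
Dpt, chr1:164796413-164796712, plus strand: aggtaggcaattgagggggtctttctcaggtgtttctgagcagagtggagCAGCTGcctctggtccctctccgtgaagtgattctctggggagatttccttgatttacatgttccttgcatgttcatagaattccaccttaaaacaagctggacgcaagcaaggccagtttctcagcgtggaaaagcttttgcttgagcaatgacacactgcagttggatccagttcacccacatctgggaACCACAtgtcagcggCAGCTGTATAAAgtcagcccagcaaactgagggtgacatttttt

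The Sema3c window held 42 CpG, more than 97.0% of all windows, and 3 matches to GGGCGG, the GC box found in 35.7% of windows. The Dpt window held 4 CpG, a TATAAA beginning 12 bases past the first transcribed base, TGTGGT, the core of the Runx site (16.8% of windows), on the other strand, and 2 CAGCTG. Sema3c and Dpt shared no motif, while Dpt shared CAGCTG with Pi16 and TATAAA with Dpp4.

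Relatives and partners of these 3 genes had no call. Of 6 other class 3 semaphorins 3 had ratios below 1. Sema3a, which is made by bone cells and nerves, had a ratio of 0.670 (0.463 to 0.971, adjusted p of 0.349) and Sema3d one of 1.01 going by the authors' deposited table. The receptors Nrp1 and Nrp2 had ratios of 1.10 (0.816 to 1.50) and 1.34 (0.798 to 2.26), and Plxnd1 one of 1.35, going by the authors' deposited table. In the family of Cd248 the other 3 genes, Cd93, Clec14a and Thbd, are mainly endothelial, and their ratios were 1.46, 1.47 and 1.08 going by the authors' deposited table. Among 11 matrix partners of Dpt 4 had ratios below 1, including Dcn, decorin, at 0.944 (chosen after its value was seen) and Col3a1 at 0.629 (0.246 to 1.60) going by the authors' deposited table.

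Cd34, Ly6a, Ly6c1 and Anxa3, which blood or vessel cells also make, showed no common direction. Cd34 encodes a sialomucin of blood stem and progenitor cells, endothelium and fibroblasts (chromosome 1, 194938819 to 194961279, plus strand). Its means were 37.7 after partial discectomy and 42.8 in sham in the authors' deposited table, a ratio of 0.881 (0.627 to 1.24, adjusted p of 0.710). Its highest library, 49.2, can have been in either group, and the groups overlapped. Podxl, podocalyxin, a relative in endothelium, had a ratio of 0.854 (0.634 to 1.15) going by the authors' deposited table.

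Anxa3 encodes annexin A3, a calcium-dependent membrane-binding protein that is abundant in neutrophils (chromosome 5, 96793339 to 96845966, plus strand). Its means in the authors' deposited table were 11.7 after partial discectomy and 7.30 in sham. The highest library, 13.7, was a partial discectomy library. The lowest of that group was at least 8.31, and the highest in sham at most 9.27. Those bounds cross, but no set of 6 values meets both at once, and the groups did not overlap. Its ratio was 1.60 (1.13 to 2.27, adjusted p of 0.188 going by the authors' deposited table), with an unadjusted p of 0.0127, and 1.46 without the highest library. Of 9 other annexins in the table, 7 had ratios below 1 and none was called. Anxa1 and Anxa2, the annexins of many stromal cells, had ratios of 0.983 and 0.825 going by the authors' deposited table. The neutrophil list, given below and not holding Anxa3, had 13 of 16 genes called higher in the same comparison, and its part in the Anxa3 value was not tested.

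With Pi16, Dpp4 and Anxa3, 3 of the 9 genes had libraries that could not overlap with partial discectomy above, where 10.2% of all genes did. Pi16 and Dpp4 were chosen on the same means, so nothing is read from that count. For none of the 9 could sham be shown to lie above in all libraries, where this was shown for 3.28% of all genes. It was not settled for Sema3c, Dpt, Cd248 and Ly6a.

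Ly6a encodes Sca-1, a surface protein of blood stem cells, vessels and mesenchymal progenitors (chromosome 15, 74994877 to 74998031, minus strand). The authors' deposited table gave it 7.48 after partial discectomy and 10.6 in sham. Its highest library, 14.6, was in sham and the other 2 sham libraries averaged 8.55. The ratio was 0.709 (0.476 to 1.06, adjusted p of 0.464 going by the authors' deposited table) and 0.875 without that library. Ly6c1, a surface protein of endothelium and some fibroblasts, lies in the same cluster (75044018 to 75048830, minus strand). Its means were 12.8 and 12.5 going by the authors' deposited table, a ratio of 1.02 (0.669 to 1.56, adjusted p of 0.959), with overlapping groups.

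Ly6c2, the neighbour of Ly6c1 and a gene of inflammatory monocytes, rose 4.31-fold (2.07 to 8.95, adjusted p of 0.0416) going by the authors' deposited table, from 6.18 to 26.6. The coding sequences of Ly6c1 and Ly6c2 in GENCODE M21 (GRCm38) differ at 9 of 396 positions, an identity of 97.7%. The first 120 coding bases of each are shown, and they hold 6 of the 9 differing positions. Reads from stretches without a differing position, such as the end of the part shown, can be given to either gene. Capitals mark the 6 differing positions, and 1 intron is left out of each.
Ly6c1, within chr15:75047420-75048511, minus strand: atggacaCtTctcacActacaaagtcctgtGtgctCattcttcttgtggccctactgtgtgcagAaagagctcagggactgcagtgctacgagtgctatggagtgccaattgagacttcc
Ly6c2, within chr15:75110578-75111667, minus strand: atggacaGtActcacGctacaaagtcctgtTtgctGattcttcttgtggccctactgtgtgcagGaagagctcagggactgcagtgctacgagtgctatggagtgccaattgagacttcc

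Of the 50-base words in all coding transcripts of Ly6c2, 30.8% also occur in those of Ly6c1, and of those of Ly6c1 14.3% occur in Ly6c2. Words of Ly6a occur in Ly6c1 for 15.0%. How the authors' counting treated reads that fit more than 1 gene is not given in the sources used here, so the levels of Ly6a, Ly6c1 and Ly6c2 are uncertain. Of the other genes of the cluster, Ly6g of neutrophils rose 3.95-fold and Gpihbp1 of capillary endothelium 2.24-fold (1.53 to 3.30, adjusted p of 0.0479) going by the authors' deposited table, or 13.6-fold and 4.16-fold after the floor was taken off. Ly6e, made in many cells, had a ratio of 1.63 (1.18 to 2.25, adjusted p of 0.143) going by the authors' deposited table. Lynx1 had lower means after partial discectomy, 11.9 against 21.0 in sham, a ratio of 0.569 (0.358 to 0.906, adjusted p of 0.244) going by the authors' deposited table. In all 3 of 8 cluster genes other than Ly6a and Ly6c1 were called higher and none lower.

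**Figure D3:**
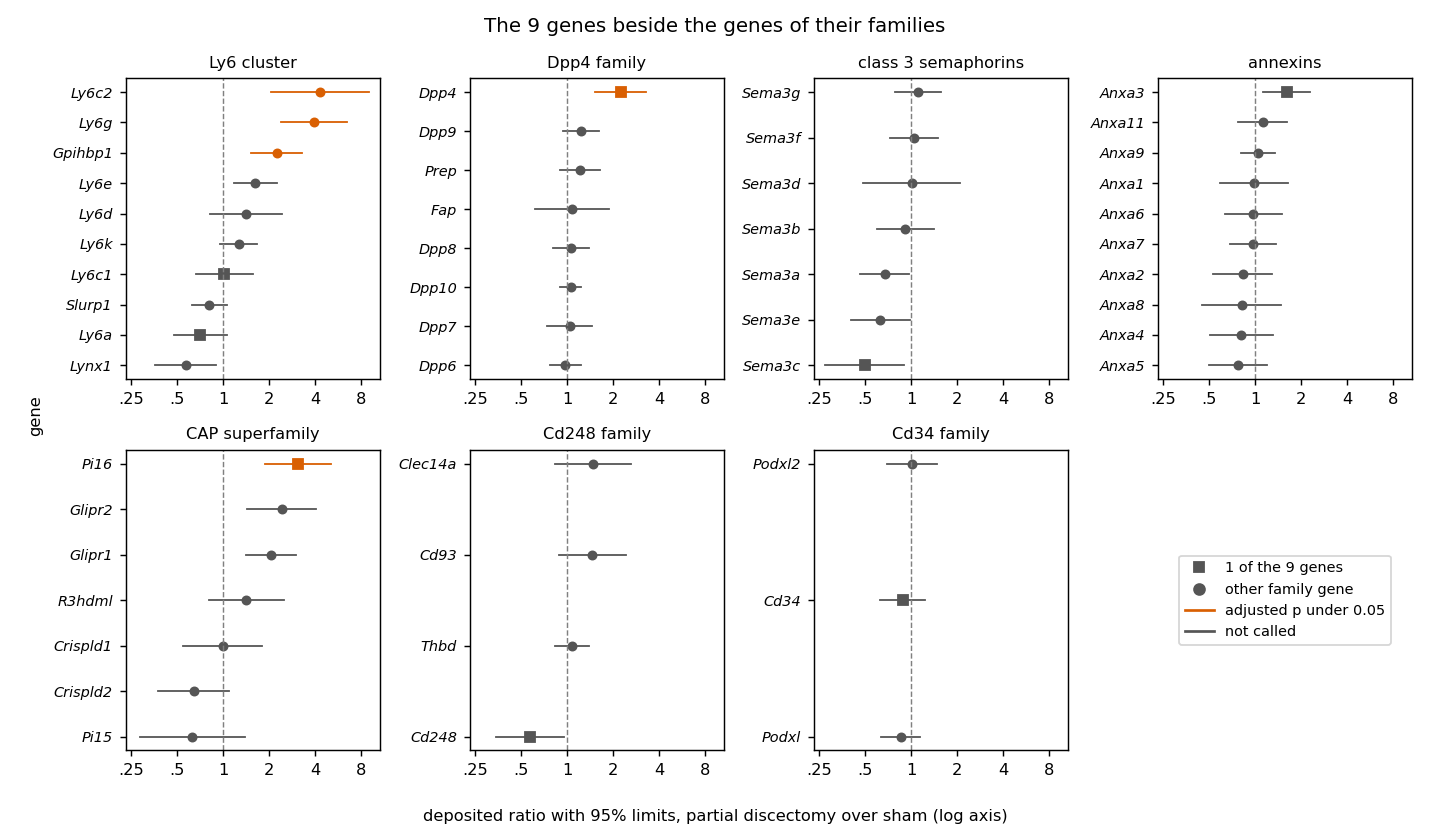
Deposited ratios with 95% limits, on a log axis, for each family of the 9 genes, with squares for the 9 genes, circles for their relatives and orange for an adjusted p under 0.05. Dpp4 and Pi16 are the only orange symbols in their families, and in the Ly6 cluster Ly6c2, Ly6g and Gpihbp1 are orange while Ly6c1 lies at 1.02 and Ly6a at 0.709.

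No other gene of the same progenitors was called. Of 20 looked for, 19 were in the table, 0 were called higher and 0 lower, and 14 had ratios below 1 (73.7%, against 37.3% of all genes), with a median log2 ratio of -0.40. Without adjustment, at p under 0.05, the authors' deposited table had 1 of them higher, the ubiquitin hydrolase gene Uchl1, and 4 lower, Tnxb, Mfap5, Creb5 and Opcml, all 5 named after their values were seen. The matrix gene Tnxb had means of 27.0 and 98.7, a ratio of 0.274 (0.110 to 0.684, adjusted p of 0.328) going by the authors' deposited table. A single sham library held 73.3% of the sham total of Tnxb, and without it the ratio was 0.683. Cd55, a complement regulator on these cells, had a ratio of 1.32 (0.982 to 1.77) and the matrix gene Fbn1, fibrillin-1, one of 0.846 (0.595 to 1.20) going by the authors' deposited table. For 14 of the 19 genes the highest library was certainly in sham, a share of 73.7% where all genes had 21.9%. These are the same 14 genes that had ratios below 1. A lower ratio makes a highest library in sham more likely, so this share is not a separate result. The median log2 ratio of those 14 was -0.52, and -0.26 without each gene's highest library, a step that moves every such ratio upward by construction.

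General fibroblast genes and genes of the more committed state showed no call either. Of 15 general fibroblast genes 13 had ratios below 1, with a median log2 ratio of -0.45. Their summed levels above the floor went the other way, 63411.5 after partial discectomy and 56455.6 in sham by the authors' deposited table. Of these sums Col1a1 gave 34179 and 27782, and Col1a2 20059 and 15383. For the 19 other progenitor genes the sums were 427 and 580. Pdgfra, a receptor found on most fibroblasts, stood at 157 and 195, a ratio of 0.806 (0.541 to 1.20, adjusted p of 0.639) going by the authors' deposited table. Col3a1, given above, was below 1 and Col1a1, at 1.23 (0.134 to 11.3), above it in the authors' deposited table. For 10 of the 15 the highest library was certainly in sham and for 0 after partial discectomy. All 10 are among the 13 with ratios below 1, so this count is not a separate result. Of 18 genes of Col15a1 and committed fibroblasts 10 had ratios below 1, with a median log2 ratio of -0.13, and Col15a1 itself, a basement membrane collagen, was at 0.935 (0.503 to 1.74) going by the authors' deposited table. The sums of those 18 were 1838 and 1859 by the authors' deposited table.

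Genes of blood cells were called higher in the same comparison. Over all genes 2.28% were called higher and 0.104% lower, and 14535 of 23170 had ratios above 1. At an unadjusted p under 0.05 in the authors' deposited table, 10.9% of all genes were higher and 3.31% lower. Of 10 general leukocyte genes 4 were called higher, and their levels above the floor summed to 621 after partial discectomy and 233 in sham by the authors' deposited table. Ptprc, the CD45 antigen, rose 3.64-fold (2.37 to 5.60, adjusted p of 0.0107), per the authors' deposited table. For T and NK cells 14 genes were measured, relevant because T cells carry Dpp4, and 5 were called higher. The sums were 41.4 and 17.9 by the authors' deposited table. A mean above the floor under 1 was found for 7 of them, and 3 were called higher with p adjusted over genes averaging at least 1 above it. Lck, the kinase of the T cell receptor, was at 3.25 and 1.19, and Cd4 at 5.60 and 5.42, going by the authors' deposited table. Of 16 neutrophil genes 13 were called higher, with sums of 2694 and 723 by the authors' deposited table. Of these sums Mmp9, which was not called at a ratio of 1.92, alone gave 1151 and 599. Of 12 genes of blood stem and progenitor cells 9 had ratios above 1. Their median log2 ratio was 0.70, and 3 were called higher and 1, Hlf, lower. With p adjusted over genes averaging at least 1 above the floor, 1 was called higher. Their sums were 76.6 and 71.4, of which Hlf alone gave 15.4 and 48.0, by the authors' deposited table. Of 20 endothelial genes none was called, all had ratios above 1, with 8 higher and 0 lower at an unadjusted p under 0.05, and the sums were 461 and 320 by the authors' deposited table. The defining vessel genes Pecam1 and Cdh5 had ratios of 1.30 and 1.49 going by the authors' deposited table. Of 12 pericyte and smooth muscle genes, relevant to Cd248, none was called, 1 was lower and 0 higher at an unadjusted p under 0.05, and the sums were 554 and 681 by the authors' deposited table. What part these cells have in the values of Pi16, Dpp4, Cd34, Ly6a, Ly6c1, Anxa3 or Cd248 was not tested.

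**Figure D4:**
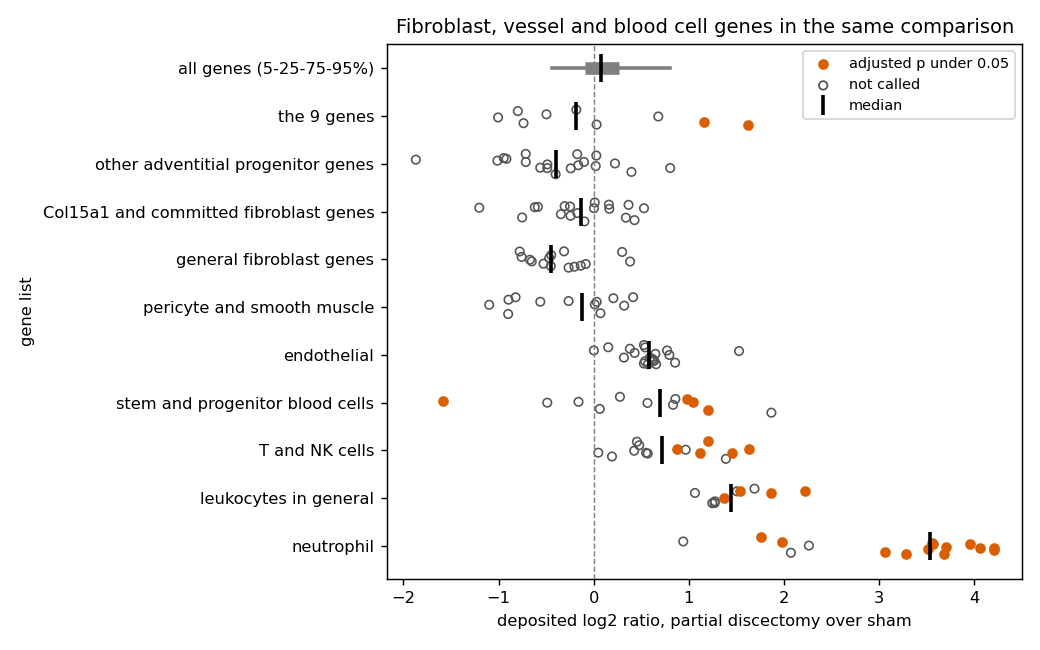
Deposited log2 ratios of single genes by list, with orange points for an adjusted p under 0.05, open points for genes not called and black ticks for medians. The top line gives the range of all genes, with a median of 0.08, and the median of the 9 genes is -0.18. Other adventitial progenitor genes and general fibroblast genes have medians of -0.40 and -0.45. These lie on the other side of 0 from those of neutrophils, 3.53, and leukocytes, 1.44.

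Genes on the opposite strand overlap 4 of the 9 genes, Pi16, Dpp4, Cd34 and Dpt, in GENCODE M21. Whether counting used strand is not given in the sources used here, so reads from those genes cannot be told apart from reads of their antisense partners. Of these partners only that of Cd34, Gm16897, is in the table, at 1.94 and 2.32 going by the authors' deposited table. Anxa3 is overlapped by Gm42603 on the same strand, with means of 2.29 after partial discectomy and 2.01 in sham by the authors' deposited table. Strand cannot separate reads from that overlap.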

How the data were processed

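RNA from 3 sham and 3 partial discectomy libraries was measured by sequencing. The submitters' processing notes name STAR 2.6.1d and mm10. How reads were counted, filtered, normalized and modelled is not given in the sources used here. The table deposited by the authors holds a normalized signal (group means and summaries over 6 libraries), a ratio, its log2, a signed fold change with limits, which was entered as a score in the deposited table's units, and a p-value with its adjustment. A second file with gene positions only was not used. Depth is unknown, so no interval or detection limit that needs it is given.

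The negative fold changes were turned into ratios. A call is a deposited adjusted p under 0.05, which equals the Benjamini-Hochberg adjustment over 23170 genes. Bounds on library values used both group totals, the highest value and the geometric mean, with no library under the floor of 1, and were computed in Python 3.11.15 with numpy 2.4.6. They rest on the group means being arithmetic means of 3 libraries, and averaging both gave the deposited mean over 6 libraries for all 23170 genes. The bounds and the adjustment were tested on simulated data. Promoters came from RefSeq GRCm38.p6 (6 of 9 genes matched, with 7 windows) and gene positions from GENCODE M21, the start of which equals the deposited one for 22537 of 22658 genes matched by symbol.

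The members and gene lists were chosen with earlier results of these data known. Named genes are the 9 members, up to 4 called genes and up to 3 with the highest mean of each list, and 18 fixed genes. Bglap, Ctsk and others so marked are named after their values were seen. The p-values may measure partly technical spread. Alternatives were the floor subtracted, 2 other centres, other gene sets for the adjustment, and the highest library left out.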

Additional observations from a re-analysis of the deposited data

How the results depend on the processing

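Over the alternatives run, no member's log2 ratio left its deposited 95% limits and no called ratio changed sign. Subtracting the floor cannot change a sign, nor can leaving out the highest library where the groups did not overlap, as for Pi16 and Dpp4. Centring moves every gene by only 0.08 or 0.13, so it could not take a member out of its limits or change a called sign. With p adjusted only over genes averaging 5 or more above the floor, 1 of the 9 genes was called higher instead of 2, because Pi16 is then not tested, and among all genes tested 233 were called higher and 10 lower instead of 528 and 24. The adjusted p of Dpp4 was then 0.0428. With a minimum of 1 above the floor it was 0.0349, and that of Pi16 0.0287. With the floor subtracted the log2 ratio of Pi16 was 2.22 instead of 1.62. Centring on the summed group means, which moves all genes by 0.13, gave 1.49 for Pi16, 1.03 for Dpp4 and -0.10 for Ly6c1, whose ratio was above 1 as deposited. For Dpp4, Anxa3, Dpt, Cd248 and Ly6a the library left out as the highest was placed by the geometric mean, a step added after the data were seen, and for Pi16 and Sema3c by the group totals alone. Leaving out each library by name needs values per library, so it was not run, nor was DESeq2 or edgeR. No paired analysis was possible because the columns analysed are group means, and whether any libraries are paired between the groups is not stated. The unknown depth limits what can be said of Pi16 in sham, near the floor.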

Other observations

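In the list of blood stem and progenitor cells, Slamf1 and Flt3, receptors of early blood cells, were called higher, with ratios of 1.97 (95% limits 1.59 to 2.45) and 2.30 (1.76 to 3.01) by the authors' deposited table. Their sham means were 1.09 and 1.43, close to the floor, by the authors' deposited table. Taking the floor off these values of the authors' deposited table gave ratios of 13.2 and 5.33. Slamf1, whose mean above the floor was 0.616 by the authors' deposited table, is not tested where a minimum of 1 above the floor is set. Kit, the receptor of stem cell factor, stood at 7.14 and 3.94, a ratio of 1.81 (1.24 to 2.65, adjusted p of 0.109) going by the authors' deposited table. Hlf, a transcription factor of blood stem cells that other tissues also express, fell to a ratio of 0.334 (0.199 to 0.558, adjusted p of 0.0401) going by the authors' deposited table. Ly6a and Cd34, surface proteins found among blood stem and progenitor cells, were at 0.709 and 0.881 going by the authors' deposited table.

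Among tendon, synovium and periosteum genes the authors' deposited table called 1 of 12 lower and none higher. It was Tppp3, a tubulin-binding protein of tendon sheath progenitors, with means of 11.8 after partial discectomy and 26.3 in sham in the authors' deposited table, a ratio of 0.448 (0.305 to 0.659, adjusted p of 0.0453). Its highest library was in sham, the ratio without it was 0.523, and the groups did not overlap by the sums and means of the authors' deposited table.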
